A study of Mus musculus with 6 samples.

Results

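The 7SK particle and the kinase it holds in check were followed through muscle cell differentiation by the transcripts of 8 genes. They are the noncoding RNA *Rn7sk* (7SK), the 7SK-bound proteins *Mepce*, *Larp7* and *Hexim1*, the subunits *Cdk9*, *Ccnt1* and *Ccnt2* of the positive transcription elongation factor P-TEFb, and the elongation factor *Ell2*. They were taken by symbol from the 54525 gene rows of the count tables. All 8 were found, and all 8 passed the filter on low counts. RNA-seq had been performed on total RNA of wild-type C2C12 cells, an established mouse myoblast line that was not treated otherwise. Of the 6 cultures, 3 were myoblasts in growth medium (day 0, D0) and 3 were myotubes after 5 days in low-serum differentiation medium (D5), and all share the line and genotype. The labels give no share of fused cells, and a D5 culture may hold cells that did not fuse. The effects of differentiation and of the change of medium cannot be told apart in this design, and the labels do not say whether cultures of one group were grown independently, so p-values measure the spread between these samples.

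RNA polymerase II pauses shortly after it starts on many genes, and P-TEFb, a CDK9 kinase with a cyclin T, phosphorylates the polymerase and the pausing factors so that elongation proceeds. A large share of P-TEFb is kept inactive in a particle built on 7SK, a short RNA made by RNA polymerase III. MEPCE caps the 5′ end of 7SK, LARP7 holds its 3′ end and protects it, and HEXIM1 bound to 7SK inhibits the kinase. Released P-TEFb can join the super elongation complex, whose scaffold is an AFF protein and which contains ELL or ELL2. In muscle, CDK9 with cyclin T2 is known to interact with MyoD.

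7SK itself is the member with a sequence that its protein partners read directly. It is encoded by *Rn7sk* (ENSMUSG00000065037.1), a single exon of 331 bases on the minus strand of chromosome 9 of GRCm38 (78175303 to 78175633) that shares no exonic base with another annotated gene. Its ends are shown as DNA letters of the GENCODE M21 transcript because they carry the elements bound by HEXIM1 and LARP7. Capitals mark the 3 GATC motifs (GAUC in the RNA) in bases 1 to 120, starting at bases 13, 42 and 64 from the 5′ end, and the terminal run of T in bases 272 to 331. GATC repeats in the 5′ hairpin are the known contact of HEXIM1, and the terminal U run is the kind of end that La-type proteins such as LARP7 bind.
7SK bases 1 to 120: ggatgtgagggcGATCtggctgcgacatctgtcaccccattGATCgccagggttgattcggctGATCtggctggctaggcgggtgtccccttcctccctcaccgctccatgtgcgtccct
7SK bases 272 to 331: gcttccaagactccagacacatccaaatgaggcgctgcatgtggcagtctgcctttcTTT

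The libraries held 36555048 to 40895840 counts on genes at D0 and 25449759 to 25811300 at D5. Synthetic ERCC spike-in RNAs took 0.726% to 0.859% of all counts at D0 and 0.720% to 2.09% at D5. All 12 muscle and proliferation markers passed the threshold used below, with *Myog*, *Mymk*, *Ckm*, *Acta1*, *Myh3* and *Tnnt3* higher and *Mki67*, *Ccnb1*, *Top2a*, *Myod1*, *Myf5* and *Pax7* lower at D5. The 7 markers of blood, endothelial, epithelial and fat cells had at most 7 counts in any library. Values below are counts per 1000000 (CPM) after edgeR's TMM scaling, and differences between D5 and D0 come from the quasi-likelihood test of edgeR, adjusted by the Benjamini-Hochberg method over 16290 genes. In bulk RNA, fewer cells that express a gene and less RNA per cell cannot be told apart.

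All 8 members differed between myoblasts and myotubes with an adjusted p under 0.05, 4 of them higher (*Hexim1*, *Rn7sk*, *Ell2*, *Ccnt1*) and 4 lower (*Larp7*, *Cdk9*, *Ccnt2*, *Mepce*) at D5. Of all genes tested, 82.9% passed the same threshold, 42.2% higher and 40.8% lower, so the number of members called lies close to that background. The sizes were unequal. *Hexim1* rose 2.26-fold and *Larp7* fell to 47.5% of its D0 level, *Rn7sk* rose 1.52-fold, and the other 5 members had log2 fold changes between -0.17 and 0.23. The groups did not overlap for any of the 8 members, as for 83.3% of all genes tested (42.2% higher and 41.1% lower without overlap). The median log2 fold change of the members was 0.037, against 0.0022 over all genes tested.

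**Figure D1:**
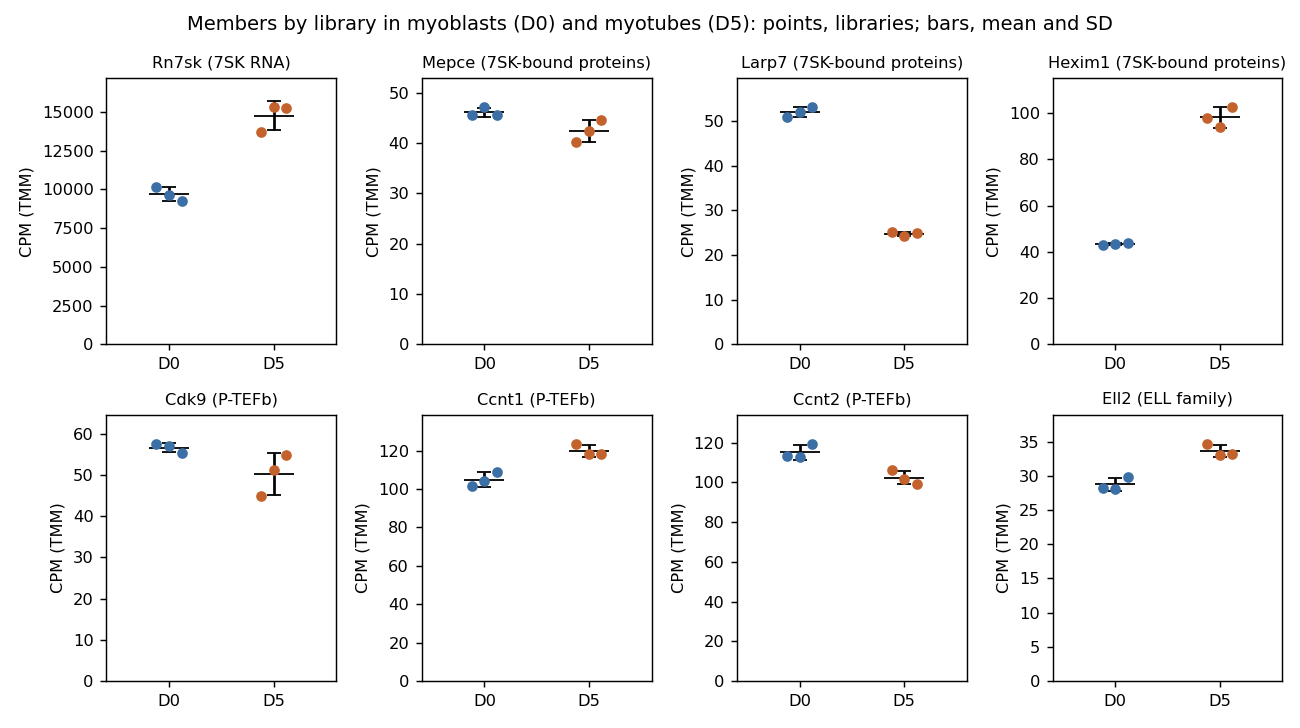
TMM-scaled CPM (y axis, from 0) of each member in the 3 D0 and 3 D5 libraries (x axis); points are libraries and bars are the mean with the SD. *Hexim1*, *Rn7sk* and *Larp7* show wide gaps between the groups, while the highest D5 library for *Cdk9* (55.0 CPM) lies just under the lowest D0 library (55.4 CPM).

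*Rn7sk*, the scaffold RNA, ranked 3 among all genes by counts in every library. It took 1.04%, 0.994% and 0.957% of the counts on genes in the myoblast libraries 1, 2 and 3, and 1.33%, 1.48% and 1.48% in the myotube libraries 1, 2 and 3. In CPM the D0 libraries were at 10184, 9667 and 9248 and the D5 libraries at 13697, 15332 and 15287. Every D5 library lay above every D0 library, and D5 replicate 1 was the lowest of the myotube cultures. The log2 fold change was 0.61 (SE, the standard error, 0.042, edgeR adjusted p = 4.1e-14). Without scaling, *Rn7sk* had a log2 fold change of -0.074, and one of 0.051 when the ERCC counts set the scale, neither past the threshold, so its rise is relative to the other RNAs of the libraries. The share of counts on small nucleolar RNAs was also lowest in replicate 1 among the D5 libraries (0.0464%, 0.0686% and 0.0596% in replicates 1, 2 and 3). It was 0.0441%, 0.0467% and 0.0397% at D0, so the groups overlapped. The share on small nuclear RNAs was 0.0186%, 0.0204% and 0.0187% at D0 and 0.0243%, 0.0449% and 0.0342% at D5. For it the groups did not overlap, and replicate 1 was again the lowest at D5. The part of either share in the *Rn7sk* value was not tested.

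7SK has many copies in the mouse genome, and 68.1% of the 50-base stretches of *Rn7sk* also occur in transcripts of other annotated genes. The 73 loci that share at least a 20-base stretch with it had few counts. Their sum was 469 to 544 at D0 and 249 to 331 at D5, at most 0.143% of the counts on *Rn7sk* in any library. *Gm24447*, the locus that shares most, had 330, 255 and 254 counts at D0 and 126, 162 and 149 at D5. How reads with several matches were treated is not given in the sources used here, so the split between *Rn7sk* and its copies is uncertain, although the annotated copies held few of the counts.

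*Hexim1* and *Larp7*, which encode the inhibitor and the 3′ end binding protein of the particle, moved in opposite directions. *Hexim1* (ENSMUSG00000048878.6, chromosome 11 of GRCm38 from 103116231 to 103119725) had 43.0, 43.4 and 44.0 CPM in the D0 libraries and 97.7, 94.0 and 103 CPM in the D5 libraries. The lowest myotube value was well above every myoblast value. Its log2 fold change was 1.17 (SE 0.040, edgeR adjusted p = 5.3e-22), which placed it at the 83.3 percentile of all genes tested. Raw counts of *Hexim1* were also higher at D5 (2316 to 2554) than at D0 (1611 to 1823) although the D0 libraries were deeper, and it was the only member with that order.

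*Larp7* (ENSMUSG00000027968.11, chromosome 3 from 127536714 to 127553349) had 51.1, 52.1 and 53.2 CPM at D0 and 25.2, 24.3 and 24.9 CPM at D5. The myotube libraries lay within 1 CPM of each other, and all were far below the myoblast libraries. The log2 fold change was -1.07 (SE 0.046, edgeR adjusted p = 2.0e-19). *Larp7* was lower past the threshold in all 15 alternative analyses, with log2 fold changes from -1.76 to -1.05, and was the only member called under every one of them. A pseudogene, *Gm12666*, holds 14.97% of the 50-base stretches of *Larp7* transcripts. It had 71, 83 and 87 counts at D0 and 25, 37 and 35 at D5, at most 6.18% of the *Larp7* counts of a library.

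*Mepce*, which encodes the capping enzyme (ENSMUSG00000029726.16, chromosome 5 from 137781906 to 137787655), moved little. It had 45.5, 47.1 and 45.6 CPM at D0 and 40.1, 42.5 and 44.6 CPM at D5, so the nearest libraries of the groups were less than 1 CPM apart. Its log2 fold change was -0.12 (SE 0.045, edgeR adjusted p = 0.0156). The call was lost without D5 replicate 1 (log2 fold change -0.079, adjusted p = 0.127 from edgeR) and with DESeq2 (adjusted p = 0.0548).

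The kinase *Cdk9* (ENSMUSG00000009555.16, chromosome 2 from 32705784 to 32713076) had 57.7, 57.1 and 55.4 CPM at D0 and 44.9, 51.2 and 55.0 CPM at D5. The myotube libraries were spread more widely than the myoblast ones, with an SD of 5.07 CPM against 1.18 CPM (n = 3 each), and D5 replicate 1 was the lowest. The log2 fold change was -0.17 (SE 0.050, edgeR adjusted p = 0.0026). Without D5 replicate 1 it was -0.091 and the edgeR adjusted p was 0.0683, so the call depends on that library.

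Transcripts of the cyclins T1 and T2, alternative partners of CDK9, moved by small amounts in opposite directions. *Ccnt1* (ENSMUSG00000011960.12, chromosome 15 from 98538689 to 98570923) had 101, 104 and 109 CPM at D0 and 124, 118 and 118 CPM at D5, a log2 fold change of 0.19 (SE 0.036, edgeR adjusted p = 1.6e-05). *Ccnt2* (ENSMUSG00000026349.14, chromosome 1 from 127774164 to 127808061) had 113, 113 and 120 CPM at D0 and 106, 102 and 99.4 CPM at D5, a log2 fold change of -0.17 (SE 0.036, edgeR adjusted p = 1.1e-04). The groups did not overlap for either cyclin, and the shifts were of similar size and opposite sign. The sign of the *Ccnt1* value turned to -0.49 without scaling and to -0.38 with the ERCC spike-ins. Of the exonic length of *Ccnt1*, 7.59% is shared with the antisense gene *9330020H09Rik*, whose counts (93 to 140 in all libraries) were at most 3.33% of those of *Ccnt1*. No 50-base stretch of *Ccnt2* occurs in another annotated gene.

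*Ell2*, which encodes a subunit of the super elongation complex (ENSMUSG00000001542.7, chromosome 13 from 75706757 to 75772364), moved little. It had 28.3, 28.1 and 29.9 CPM at D0 and 34.72, 33.03 and 33.16 CPM at D5, with every myotube library above every myoblast library. The log2 fold change was 0.23 (SE 0.048, edgeR adjusted p = 9.7e-05). It turned to -0.46 without scaling and to -0.35 with the ERCC spike-ins, the latter not past the threshold.

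Scaling moved the values of all members by about the same amount. The median log2 fold change of all genes was -0.68 without scaling and -0.58 with the ERCC spike-ins. Relative to that median, *Hexim1* stood at 1.17, 1.17 and 1.16 with TMM, no scaling and the spike-ins. In the same order *Rn7sk* stood at 0.605, 0.605 and 0.629, and *Larp7* at -1.08, -1.08 and -1.07. This agreement was fixed in advance, because a change of scaling shifts the log2 fold changes of all genes by about the same amount. With the spike-ins 1 member, *Larp7*, passed the threshold, beside 5560 of all genes. The spike-in factors were 0.867, 0.836 and 0.732 in the D0 libraries and 1.22, 0.726 and 2.13 in the D5 libraries. *Hexim1* then kept a log2 fold change of 0.59 with an edgeR adjusted p of 0.393. Calls lost under this scaling therefore do not show that a gene was unchanged. In the lists described further on, a rise of less than 0.68 on the log2 scale would likewise change sign without scaling, so the directions there are relative to the median gene.

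**Figure D2:**
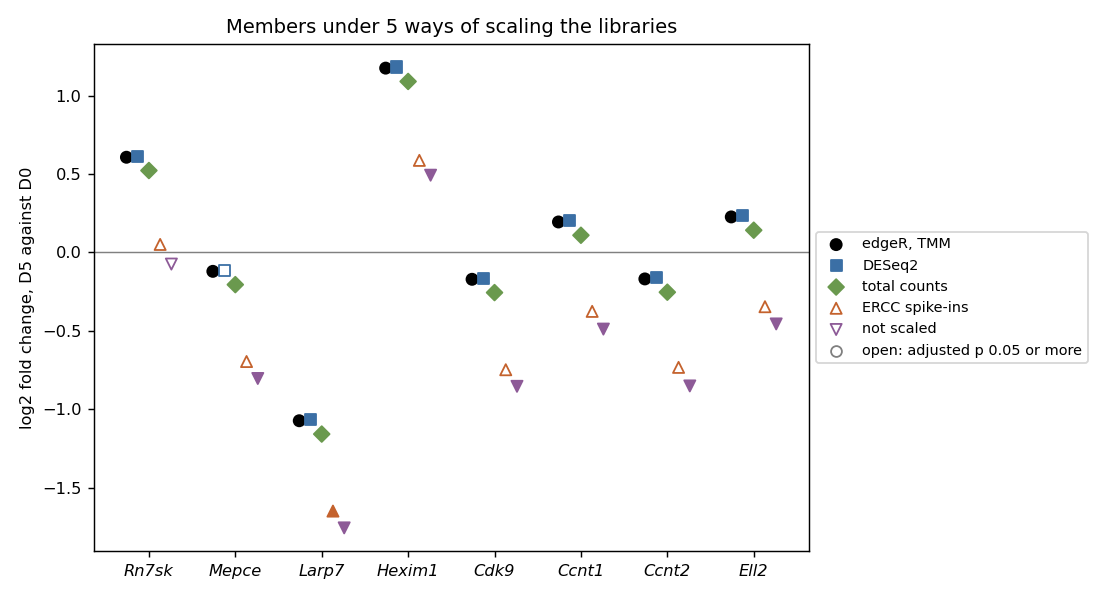
Log2 fold change of each member, D5 against D0 (y axis), under 5 ways of scaling the libraries; filled symbols have an adjusted p under 0.05. The unscaled and spike-in values lie below the others for every member, by about the shift of the median of all genes, and *Larp7* is below 0 and *Hexim1* above 0 under all 5.

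Levels between genes were compared per length, as TPM (transcripts per 1000000 transcripts). *Rn7sk* had 101275 ± 3328 TPM at D0 and 138259 ± 6141 TPM at D5 (SD, n = 3 each), far above any protein-coding member, and a per-length level of so short an RNA depends on which fragment sizes were sequenced. At D0 *Larp7* was the highest of the protein-coding members with 76.2 ± 2.76 TPM. It was followed by *Mepce* (44.8 ± 1.27 TPM), *Hexim1* (43.0 ± 1.15 TPM) and *Cdk9* (42.5 ± 0.408 TPM), whose ranges overlapped from one to the next, then by *Ccnt1* (39.6 ± 2.07 TPM), *Ccnt2* (32.3 ± 1.47 TPM) and *Ell2* (10.1 ± 0.478 TPM). At D5 the order was different. *Hexim1* was the highest with 87.1 ± 4.46 TPM, then *Ccnt1* with 40.7 ± 1.91 TPM. *Mepce* (36.97 ± 1.497 TPM), *Cdk9* (33.8 ± 2.92 TPM) and *Larp7* (32.48 ± 1.195 TPM) again overlapped from one to the next, above *Ccnt2* (25.8 ± 1.31 TPM) and *Ell2* (10.6 ± 0.511 TPM, all SD, n = 3). Unlike in CPM, the D0 and D5 groups overlapped in TPM for *Ccnt1* (37.6 to 41.8 and 39.4 to 42.8) and *Ell2* (9.78 to 10.7 and 10.3 to 11.2).

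Ratios of counts per kilobase within a library do not depend on scaling, and 4 were compared. *Hexim1* per *Cdk9*, the inhibitor against the kinase, was 0.984, 1.00 and 1.05 in the D0 libraries and 2.87, 2.42 and 2.47 in the D5 libraries, a 2.55-fold higher ratio in myotubes. *Larp7* per *Rn7sk*, the 3′ end binding protein against the RNA, had log2 values of -10.5, -10.4 and -10.3 at D0 and -11.9, -12.1 and -12.1 at D5, a 3.202-fold lower ratio. *Ccnt1* per *Ccnt2* was 1.21, 1.25 and 1.23 at D0 and 1.57, 1.56 and 1.60 at D5, a 1.29-fold higher ratio with little spread in either group. For these 3 ratios the groups did not overlap. The two-sided exact permutation p was 0.1 (0.133 adjusted over the 4 ratios), the smallest that 3 libraries against 3 can give. The genes of each of these pairs had already moved in opposite directions without overlap in CPM. The separation of the ratios and this p were therefore fixed in advance and add no support. *Ell2* per *Ell*, its paralog, was 0.479, 0.467 and 0.492 at D0 and 0.541, 0.506 and 0.474 at D5. Here the groups overlapped (exact permutation p = 0.3, adjusted 0.3), and a difference was not detectable beyond the spread.

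**Figure D3:**
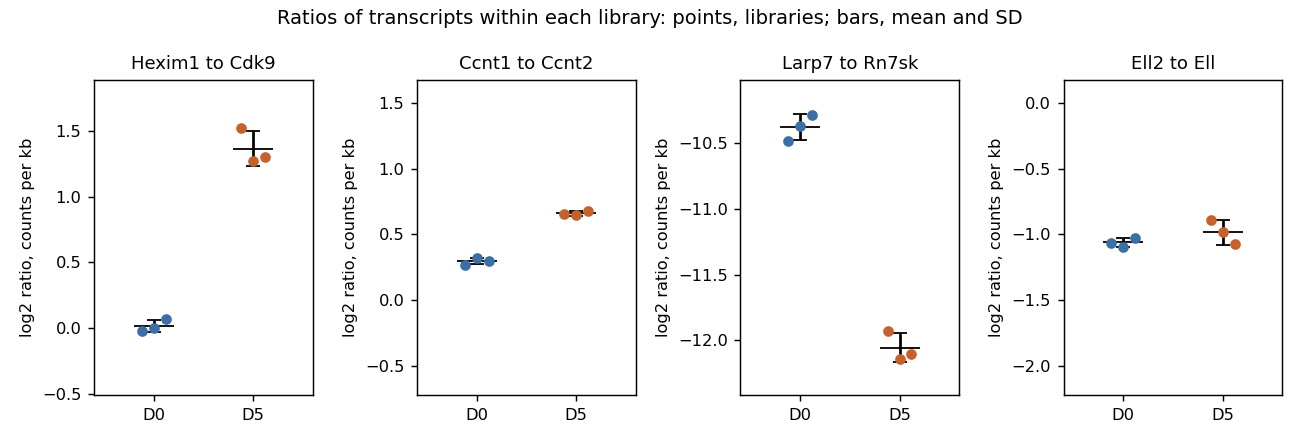
Log2 ratio of counts per kilobase (y axis, the same span in each panel) for 4 pairs of transcripts in the 3 D0 and 3 D5 libraries; points are libraries, bars the mean with the SD. The groups are apart for *Hexim1* to *Cdk9*, *Ccnt1* to *Ccnt2* and *Larp7* to *Rn7sk*, and overlap for *Ell2* to *Ell*.

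Transcripts of proteins known to bind 7SK in place of P-TEFb, or to recruit or release the kinase, were mostly lower in myotubes. Of 11 such partners, 9 fell and 1 rose past the threshold, with a median log2 fold change of -0.64 against 0.0022 over all genes tested, of which 82.9% were called and 40.8% were lower. *Hnrnpa1*, an RNA-binding protein found on 7SK that has lost P-TEFb, fell from 778 to 226 mean CPM (log2 fold change -1.79), *Trim28*, which tethers the 7SK particle at promoters, fell by 1.40 on the log2 scale, and *Srsf2*, a splicing factor that takes part in release, fell by 1.14. The member of this list that rose was *Hexim2*, the paralog of *Hexim1*, from 2.90 to 7.36 mean CPM (log2 fold change 1.35, edgeR adjusted p = 4.7e-12). Both HEXIM genes were thus higher at D5, *Hexim2* at a far lower level per length (4.22 to 9.61 mean TPM), and no 50-base stretch of either occurs in another annotated gene. *Jmjd6*, a demethylase reported in P-TEFb release, had a log2 fold change of 0.056 and did not pass the threshold.

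Of the 13 genes of the super and little elongation complexes, 11 were tested, 5 rose and 5 fell, with a median log2 fold change of -0.057. Of all genes tested, 42.2% were higher and 40.8% lower past the threshold. The scaffold genes moved unequally. *Aff1* fell from 331 to 105 mean CPM (log2 fold change -1.66) and *Aff4* by 0.13 on the log2 scale, while *Aff3*, at a low level, rose from 2.23 to 6.22 mean CPM (log2 fold change 1.47). *Eaf1*, an ELL partner, rose by 0.44 and *Zc3h8*, of the little elongation complex, by 0.52 on the log2 scale, and *Ice1* of the same complex fell by 0.47. *Mllt1*, a chromatin reader of the super elongation complex, fell by 0.39. *Ell* rose from 18.96 to 21.02 mean CPM (log2 fold change 0.15, edgeR adjusted p = 0.0167). *Ell3* had at most 1 count and *Aff2* at most 3 counts in any library and were not tested.

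Among 19 pausing and elongation factors, 9 rose and 7 fell, against 42.2% higher and 40.8% lower of all genes tested. Their median log2 fold change was 0.068. *Tcea3*, a TFIIS form, rose from 2.05 to 6.05 mean CPM (log2 fold change 1.56), *Tcea2* by 0.88 and *Cdc73*, of the PAF1 complex, from 71.9 to 130 mean CPM (log2 fold change 0.86). The FACT subunits *Ssrp1* and *Supt16*, histone chaperones used in transcription and in replication, fell by 1.43 and 0.74 on the log2 scale. *Nelfa* and *Nelfe* of the negative elongation factor NELF fell, with log2 fold changes of -0.65 and -0.17. *Nelfcd* of the same complex rose by 0.46, and *Nelfb*, at -0.011, did not pass the threshold. The DSIF genes *Supt5* and *Supt4a* rose by 0.16 and 0.51 on the log2 scale. Of 9 genes of other transcription kinases and cyclins, 4 rose and 4 fell (median log2 fold change -0.071), beside the same shares of all genes tested. The 3 genes of the CDK7 complex, *Cdk7*, *Ccnh* and *Mnat1*, had log2 fold changes of 0.23, 0.45 and 0.19, all past the threshold, and *Cdk12*, *Cdk13* and their cyclin *Ccnk* had -0.54, -0.34 and -0.46, also past it.

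**Figure D4:**
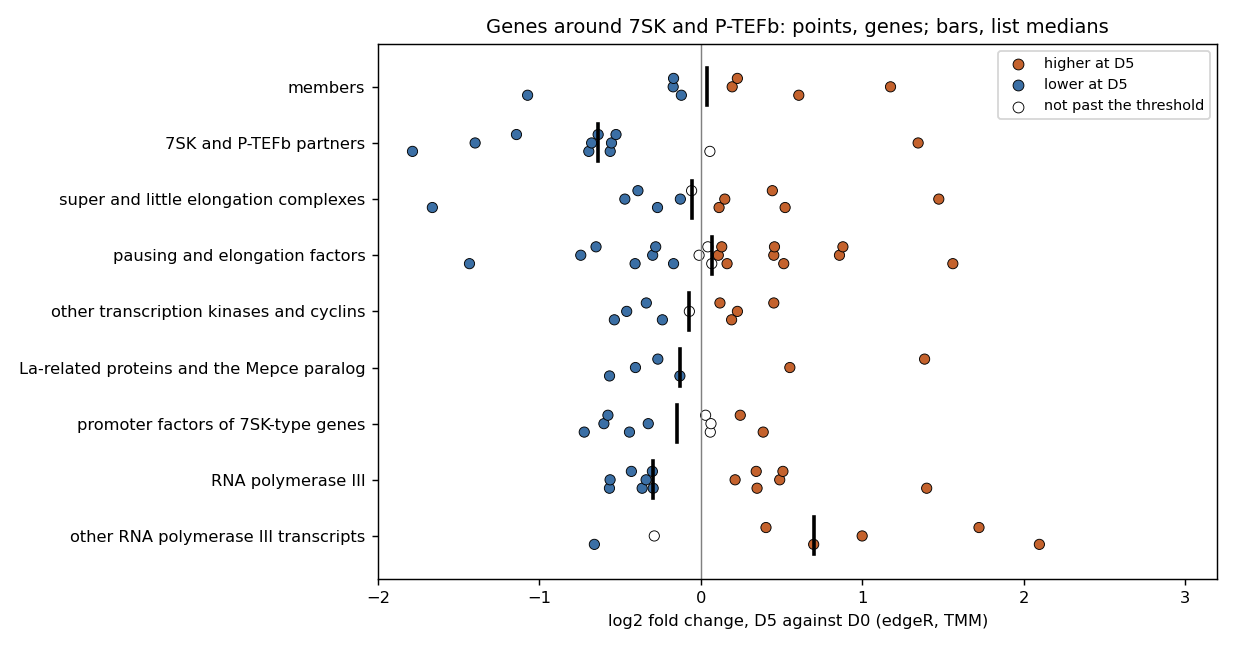
Log2 fold change, D5 against D0, with TMM (x axis) of the tested genes in the members and 8 lists around them (y axis); points are genes, coloured by the call, and bars are medians. The partners of 7SK and P-TEFb lie mostly below 0, with *Hexim2* as the only one higher at D5. *Larp6*, with 2 counts in all at D0, is not drawn.

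*Larp7* belongs to the La-related genes, whose other members moved in both directions. Of 7 genes, La itself (*Ssb*), 5 other La-related genes and the *Mepce* paralog *Bcdin3d*, 3 rose and 4 fell, with a median log2 fold change of -0.13. Of all genes tested, 42.2% were higher and 40.8% lower past the threshold. *Larp1*, *Larp4* and *Ssb* had log2 fold changes of -0.40, -0.27 and -0.13, each smaller in size than that of *Larp7* (-1.07). *Larp1b* rose from 17.6 to 46.0 mean CPM (log2 fold change 1.39) and *Larp4b* by 0.55 on the log2 scale. *Larp6*, an RNA-binding protein known for collagen mRNAs, had 2, 0 and 0 counts at D0 and 99, 67 and 110 at D5. Summed over libraries, 2 counts at D0 and 276 at D5 give a ratio of 221 after scaling, with a 95% exact binomial interval for counting error of 60.7 to 1840. *Bcdin3d*, another RNA methylphosphate capping enzyme, fell by 0.57 on the log2 scale.

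The genes that make 7SK gave no single direction. Of 10 factors of the 7SK type of promoter, 2 rose and 5 fell (median log2 fold change -0.15), against 42.2% higher and 40.8% lower of all genes tested. *Pou2f1*, *Tbp* and *Snapc4* fell by 0.72, 0.60 and 0.58 on the log2 scale, *Snapc5* and *Snapc3* rose by 0.39 and 0.24, and *Brf2*, *Bdp1* and *Snapc1* did not pass the threshold. Among 13 genes of RNA polymerase III and its general factors, 6 rose and 7 fell (median -0.30), beside the same shares of all genes tested. The alternative subunits *Polr3g* and *Polr3gl* differed, with a log2 fold change of -0.30 (13.7 to 11.2 mean CPM) for the first and 1.40 (8.16 to 21.5 mean CPM) for the second. *Maf1*, the repressor of this polymerase, rose by 0.51, and *Polr3e*, *Polr3b* and *Polr3c* fell by 0.57, 0.56 and 0.43 on the log2 scale.

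Of 11 other short RNAs made by RNA polymerase III, 7 were tested, 5 rose and 1 fell, with a median log2 fold change of 0.70, against 42.2% higher and 40.8% lower of all genes tested. For 3 of them (*Vaultrc5*, *Rny3* and *Rn7s6*) every D5 library lay above every D0 library. The same held for 42.2% of all genes tested, so this count is not a result about these RNAs. The vault RNA *Vaultrc5* rose from 5.03 to 21.6 mean CPM (log2 fold change 2.10), and the Y RNAs *Rny3* and *Rny1* by 1.00 and 0.70 on the log2 scale. The Y RNAs varied between replicates, *Rny1* with 2739, 4780 and 3743 counts at D5 and 3417, 3265 and 4448 at D0, and its groups overlapped. Of the 7SL genes, whose copies are near identical, *Rn7s2* fell by 0.66, and *Rn7s1* and *Rn7s6* rose by 0.40 and 1.72 on the log2 scale. The groups overlapped for *Rn7s1* (2.96 to 4.46 CPM at D0 and 3.82 to 5.03 CPM at D5). *Rn7s6* held few counts, with 9, 20 and 15 at D0 and 25, 39 and 27 at D5. The split of reads among the 7SL genes is uncertain. *Bc1*, a neuronal RNA, had a log2 fold change of -0.29 and did not pass the threshold. *Rmrp*, *Rpph1* and *Rnu6* had 0 to 7 counts in any library. The annotated exon of *Rmrp* is also held by a second entry of the same name, and 73.0% of that of *Rpph1* lies in *Ccnb1ip1* exons. Annotated classes of short RNAs differed. The 102 small nucleolar RNA genes tested had a median log2 fold change of -0.26 (30 higher and 35 lower), the 62 small nuclear RNA genes one of -0.23 (16 higher and 22 lower), and the 36 genes of the class of *Rn7sk* (misc_RNA) one of -0.45 (11 higher and 15 lower). The 13 small Cajal body RNA genes had a median of 0.47 (7 higher and 2 lower) and the 8 mitochondrial tRNA genes one of 0.25 (4 higher and 0 lower). The summed share of counts on small nuclear RNAs was higher in every D5 library (0.0243% to 0.0449%) than in every D0 library (0.0186% to 0.0204%).

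Over the 6 libraries, the genes whose log2 CPM followed *Rn7sk* most closely among the 11316 genes averaging 100 counts or more were *Smim19*, *Tmem150a* and *Adh7* (Pearson r of 0.9997, 0.9992 and 0.9991). For *Hexim1* they were *Rxra*, *Ncam1* and *Utp14b* (r of 0.9998 each), and for *Cdk9* they were *Acsf3*, *Tlr3* and *Prr13* (r of 0.985, 0.981 and 0.980). These correlations are a description over 2 groups of 3 libraries, in which any gene with a stable difference between D0 and D5 comes close to r = 1.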

How the data were processed

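RNA-seq of 3 D0 and 3 D5 cultures was used. The authors aligned the reads to GRCm38 and counted them per gene with featureCounts, and the deposited values are these raw counts. The paper names HISAT2 as the aligner and the labels name Tophat2. The submitters' processing notes name DESeq2 1.6.3. The library type, strand setting and handling of multi-mapping reads are not given in the sources used here. edgeR 4.0.16 (R 4.3.3) gave TMM factors, CPM and quasi-likelihood tests for genes kept by filterByExpr, with a threshold of 0.05 on the adjusted p. The SE of a log2 fold change was taken as its size over the root of the F statistic. TPM used exonic lengths of GENCODE M21, which held 99.9% of the gene identifiers. The 92 ERCC rows and a row without a name, equal to the column total and thus 50% of each column's sum, were left out. The chi-square of replicate pairs was 2.16 to 3.45 per degree of freedom, so no library was a copy. The scripts were tested on simulated data, in which 92.7% of 2-fold changes were recovered and 7.73% of calls were false. That simulation changed 193 of 15930 genes tested, far fewer than were called in the data. The members and gene lists were chosen with earlier results of these data known. Named genes are the members, list genes (the 3 largest rises and falls of longer lists, and others) and the 3 genes most correlated with *Rn7sk*, *Hexim1* and *Cdk9*. Single values of a few listed genes are not reported here. Counting limits cover counting error only. Alternatives were DESeq2 1.42.0, upper-quartile, total-count, ERCC and no scaling, protein-coding genes with *Rn7sk* only, other filters, each library left out, and a replicate block.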

Additional observations from a re-analysis of the deposited data

How the results depend on the processing

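With the ERCC spike-ins 5560 of 16290 genes passed the threshold (1813 higher and 3747 lower, 67.4% of calls lower against 49.2% with TMM). Of the members, 1 was called (0 higher, 1 lower) and 1 had no overlap between groups. The share of all genes without overlap was not computed under this scaling, so the latter count is not a result about the members. The log2 fold changes were then 0.051 for *Rn7sk*, -0.70 for *Mepce*, 0.59 for *Hexim1*, -0.75 for *Cdk9*, -0.38 for *Ccnt1*, -0.73 for *Ccnt2* and -0.35 for *Ell2*, none past the threshold, and 0 to 5 genes of each list around the members were called. Counts that were not scaled gave 3353 higher and 10953 lower genes (76.6% of calls), because the D0 libraries were deeper, with 1 member higher, and values of -0.074 for *Rn7sk*, -0.49 for *Ccnt1* and -0.46 for *Ell2*. With DESeq2 the value of *Mepce* was -0.11 and not past the threshold. Leaving out each library gave 13236 to 13599 genes, 6 to 8 members called, 2 to 4 of them lower, and values from -0.16 to -0.079 for *Mepce* and -0.24 to -0.091 for *Cdk9*. Other than for depth, causes were not tested. The other member values, the 4 ratios and, outside the spike-in scaling, the list counts kept their direction and side of the threshold or stayed within 1.5 times. The other RNA polymerase III transcripts were not run with protein-coding genes only. Deviations of samples with the same number in their titles had correlations of 0.0084, 0.13 and 0.062, and those with different numbers -0.102 to 0.0446. Not every sample correlated best with its own number. With 3 samples per group these values cannot show whether the numbers are pairs, and the numbers were not taken as pairs. With the replicate as a block 13558 genes were called, and 8 members.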
